A study of Mus musculus with 2 samples.

Results

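The potassium channel genes described here are the genes whose symbol starts with Kcn, without names that end in os or contain ot, and with 100 or more unique molecular identifiers (UMIs, counts of single RNA molecules) over both libraries. Of 99 symbols that start with Kcn, 3 were left out by name, 22 had fewer UMIs, and 74 remained of 32285 genes. Just inside the minimum stood Kcnj5 with 104 UMIs, and just outside it Kcnv2 with 96 and Kcne2 with 95. One of the 74, Kcnmb4os2, is an RNA from the strand opposite to Kcnmb4 and no channel, and it stayed in by the letter of the rule. The mice, C57BL/6J and 6 weeks old at collection, had received adeno-associated virus (AAV) in both lateral ventricles on the day of birth, and nuclei were taken from the hippocampus. AAV-STOP, the control, carried human MAPT with an early stop codon, and AAV-TAU carried the coding sequence of wild-type 2N4R human tau in full, so mice of both groups had received a MAPT vector. Tissue of 3 mice per group was pooled into 1 single-nucleus library, so there is 1 value per group, no test was possible, and the spread between mice is unknown.

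Potassium channels let potassium ions leave or enter a cell down their electrochemical gradient and set its resting potential, its spike shape and its firing rate. Voltage-gated (Kv) channels open on depolarisation, calcium-activated channels open when calcium enters, inward rectifiers pass current best near rest, and tandem-pore (K2P) channels carry background leak. In the hippocampus, Kv4 channels with their KChIP and DPP partners carry the A-type current of pyramidal dendrites, Kv7 channels carry the M-current that muscarinic receptors close, Kv3 channels speed repolarisation in fast-spiking interneurons, and the inward rectifier made from Kcnj10 buffers extracellular potassium in glia.

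The AAV-STOP library held 130252240 UMIs in 20265 barcodes and the AAV-TAU library 109428807 UMIs in 19596 barcodes, with medians of 5750 and 5119 UMIs per barcode, and 116 barcodes were found in both libraries. Median mitochondrial shares were 0.174% and 0.280%. Cell classes were rebuilt by clustering without the 74 genes and named from markers, hence the ending -like. There were 17 classes, of which 14 had 100 or more nuclei in both libraries, from 5222 and 4205 granule-like neurons down to 145 and 115 CA2-like neurons in AAV-STOP and AAV-TAU. Pairs of values below are in that order of libraries. Levels are CPM, the UMIs of a gene per 1000000 UMIs of the class, and every interval is a 95% interval that covers counting error only.

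By role, the 74 genes comprised 14 pore subunits of the Kv1 to Kv4 families, 8 silent Kv subunits, 5 Kv7 subunits, 8 subunits of the EAG, ERG and ELK families, 7 calcium- or sodium-activated channel genes, 11 inward rectifiers, 10 tandem-pore channels, 10 auxiliary subunits and Kcnmb4os2. In GENCODE vM21 (GRCm38) they ranged from 1.9 to 1135 kb in length with a median of 47.3 kb, and 23 were longer than 100 kb. Kcnip4, which encodes the KChIP4 auxiliary subunit of Kv4 channels, is the longest of them at chr5:48389502-49524907 on the minus strand and had 1415280 UMIs. Nuclear RNA is rich in unspliced transcripts, so long genes collect more UMIs, and levels of different genes are compared only per kb. Over whole libraries, Kcna1 was highest by this measure at 10.9 and 11.5 CPM per kb, above Kcna4 at 6.61 and 6.5, Kcnip4 at 5.67 and 4.64 and Kcnd2 at 4.51 and 3.74. Division by length assumes that UMIs grow in proportion to it, which was not tested.

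For 1 pore gene from each structural family, the 100 bases before a RefSeq start are given (GRCm38.p6, in the gene's direction). Each is an abundant gene of its family whose window touches no annotated exon. Not every gene of a family was considered, so the gene given need not have the most UMIs. Capitals mark the GC box, GGGCGG on either strand.
Kcnd2: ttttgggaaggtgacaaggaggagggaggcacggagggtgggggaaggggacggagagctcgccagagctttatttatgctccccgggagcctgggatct
Kcnq5: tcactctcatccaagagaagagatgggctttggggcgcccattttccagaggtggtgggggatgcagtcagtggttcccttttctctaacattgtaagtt
Kcnh7: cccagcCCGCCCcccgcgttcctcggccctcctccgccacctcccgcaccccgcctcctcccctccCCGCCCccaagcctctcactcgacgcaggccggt
Kcnt2: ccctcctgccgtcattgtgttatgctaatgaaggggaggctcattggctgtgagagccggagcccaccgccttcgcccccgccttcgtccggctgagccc
Kcnj6: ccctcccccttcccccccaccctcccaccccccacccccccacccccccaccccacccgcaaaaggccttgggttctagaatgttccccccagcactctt
Kcnk1: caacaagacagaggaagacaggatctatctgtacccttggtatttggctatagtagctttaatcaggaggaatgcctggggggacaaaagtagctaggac
These lie at chr6:21215246-21215345 (plus strand), chr1:21962651-21962750 (minus), chr2:63184288-63184387 (minus), chr1:140245618-140245717 (plus), chr16:94856691-94856790 (minus) and chr8:125995002-125995101 (plus). Kcnh7 held 2 GC boxes in this window and the other genes printed held none. Over the full 250 bases before the start, 30 of the 52 genes with an entry held a GC box (57.7%), against 33.0% of 27025 genes, and 2 of 52 held a TATA box (TATAAA on either strand, 3.85%), against 13% of all. The Kcnj6 window precedes a RefSeq start that lies inside the gene as GENCODE draws it, while the others lie before the gene. A match describes letters only and shows no binding.

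Most of the 74 genes had their highest level in the same class in both libraries: 57 did so over the 14 classes, and for 28 of these the interval lay above that of the next class in both libraries. Inhibitory-like neurons led for 9 genes, granule-like neurons for 8, oligodendrocyte precursor-like (OPC-like) nuclei for 6, and CA2-like neurons and microglia-like nuclei for 5 each. In that order, the interval lay above that of the next class in both libraries for only 4, 3, 4, 1 and 2 of them. The same counts over all genes were not made. With 1 library a group, agreement of the top class is a repeat over both libraries and not over mice.

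**Figure D1:**
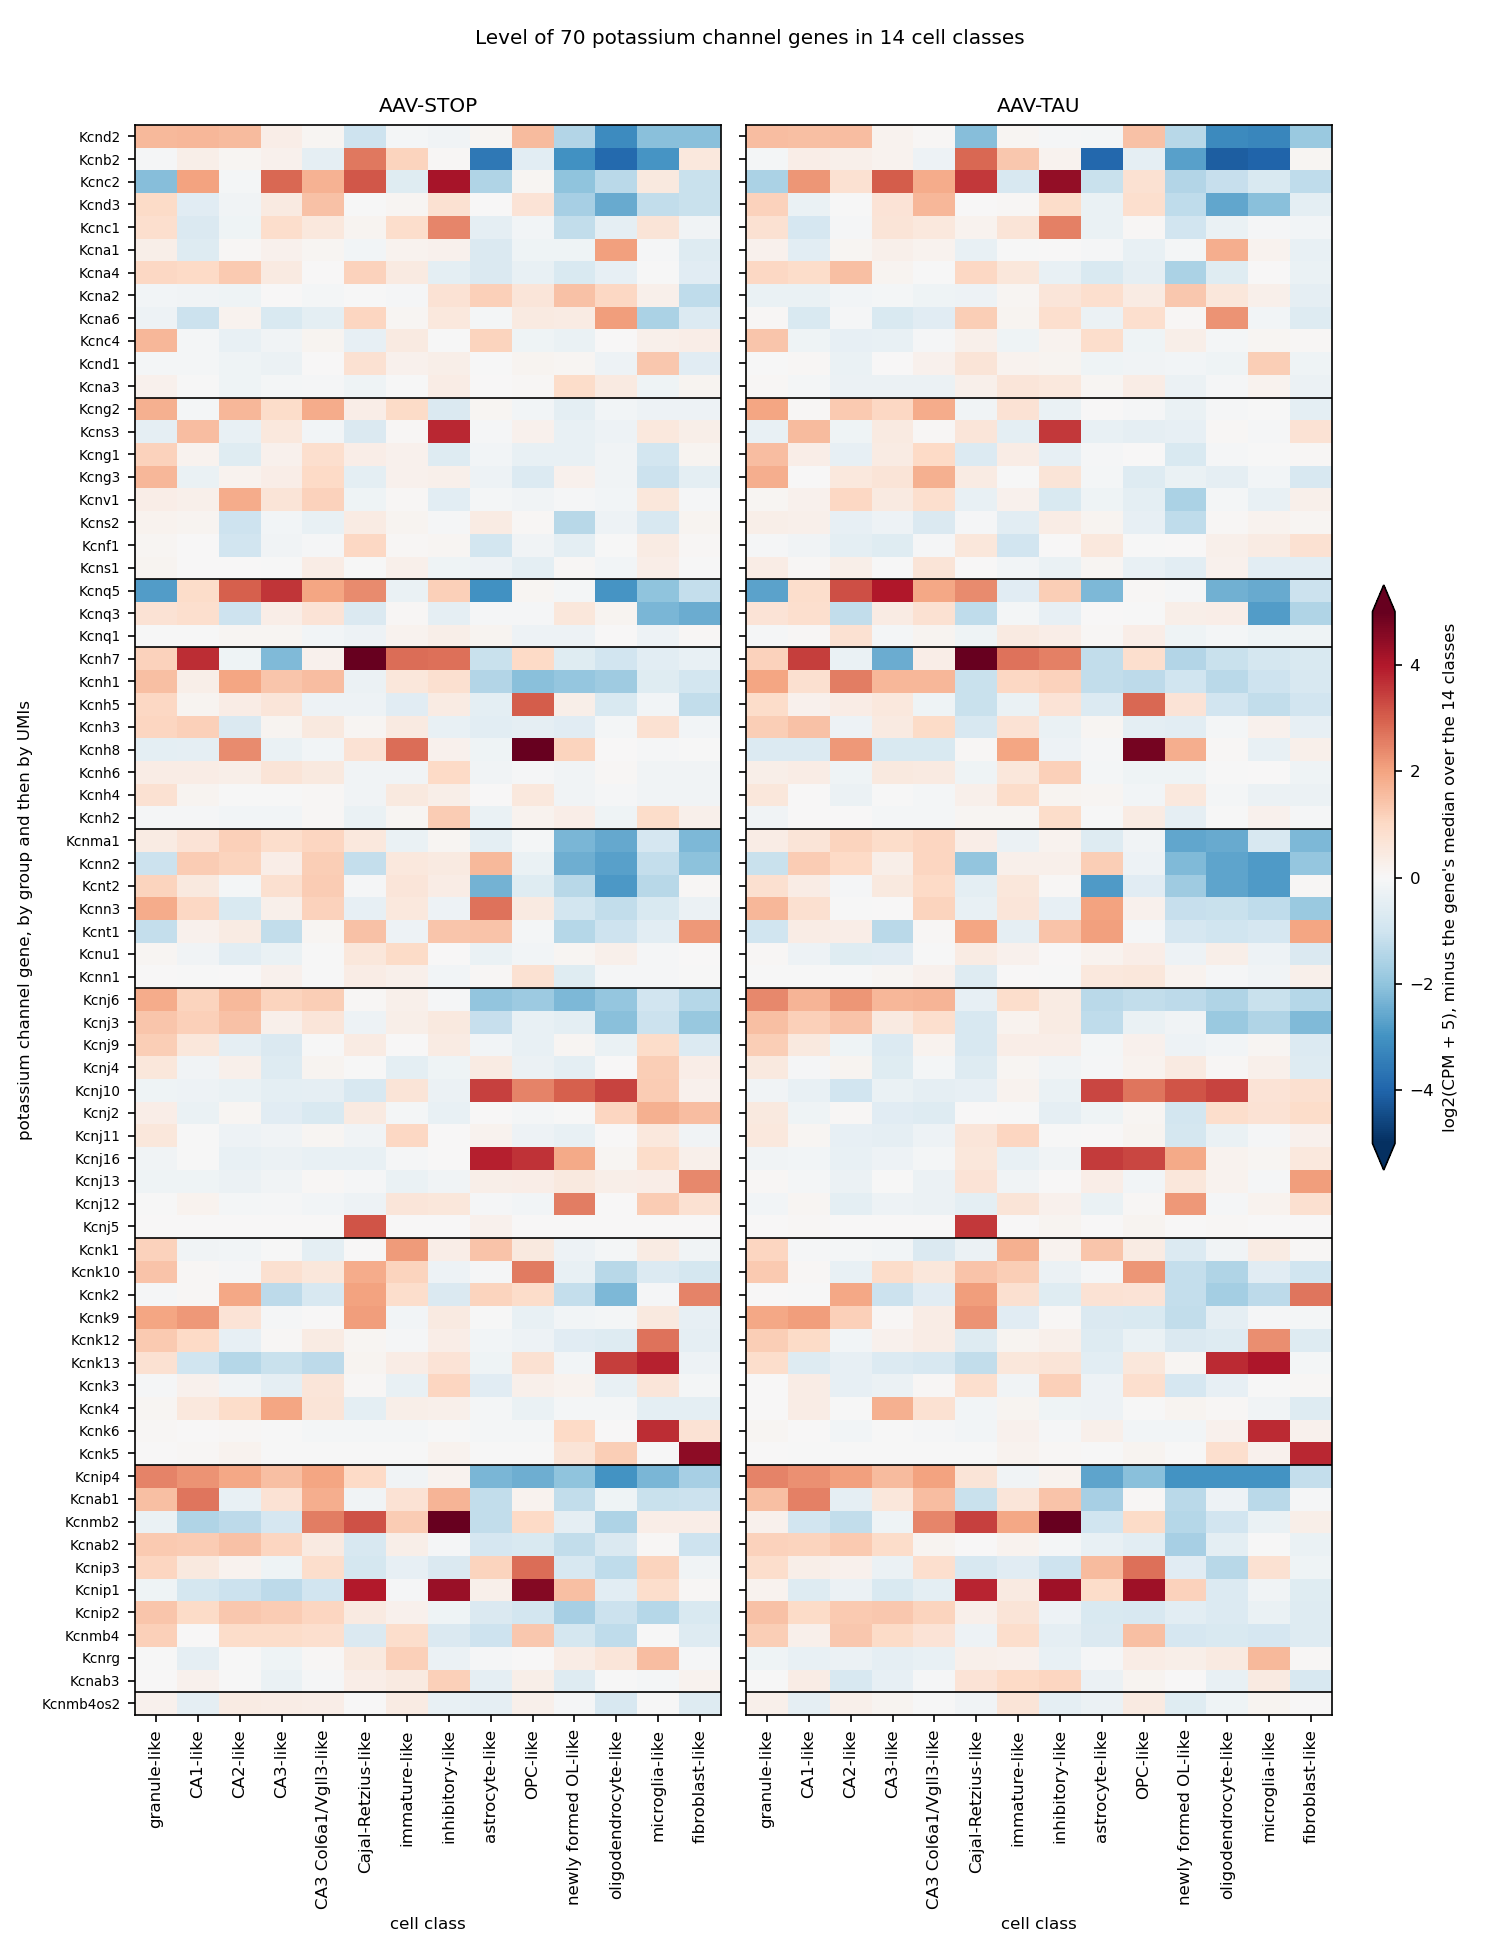
Levels of 70 of the 74 genes (rows, by role and then by total UMIs, with lines between roles) in 14 classes (columns) of each library, as log2(CPM + 5) minus the gene's median over the 14 classes. Both panels carry the same dark cells, such as Kcnq5 in CA3-like, Kcnh7 in Cajal-Retzius-like, Kcnmb2 in inhibitory and Kcnh8 in OPC-like nuclei.

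Among Kv1 to Kv4 pore genes, Kcnd2, the Kv4 pore gene of the somatodendritic A-type current, was at 3418 and 2838 CPM in CA1-like, 3300.2 and 2951 in granule-like, 3267 and 2917 in CA2-like and 3239.7 and 2743 in OPC-like nuclei. CA3-like neurons held less of it, at 1366 and 1139 CPM. The 4 leading classes exchanged places between the libraries, so no order among them is read. Kcnb2, a Kv2 delayed-rectifier gene, was at 3114 (2943 to 3291) and 3239 (3075 to 3410) CPM in Cajal-Retzius-like neurons, early-born cells of the outer layer. The next class for it, immature neuron-like nuclei, had 1059 and 1097 CPM. Kcnc2, a Kv3 gene, was at 1568 and 1495 CPM in inhibitory-like neurons, 781 and 829.9 in Cajal-Retzius-like, 665 and 571 in CA3-like and only 15.5 and 18.7 in granule-like neurons. Kcnc1, a further Kv3 gene of fast-spiking cells, was at 262 and 282 CPM in inhibitory-like neurons, and at most 84.6 in the other 13 classes.

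Of the Kv1 genes, Kcna1 and Kcna6 were higher in oligodendrocyte-like nuclei than in every neuronal class, while Kcna4 was highest in CA2-like neurons at 83.7 and 100.1 CPM. Kcna1, a Kv1 gene best known from axons beside the node of Ranvier, was at 250.2 (236 to 265) and 218 (206 to 231) CPM in oligodendrocyte-like nuclei, while the other 13 classes lay between 31.7 and 71.5 CPM. Kcna6, a further Kv1 gene, was at 90.5 and 85.3 CPM there, against 42.3 and 40.2 in Cajal-Retzius-like neurons as the next class. Kcna2, the axonal partner of Kcna1, was highest in newly formed oligodendrocyte-like nuclei at 70.8 and 75.9 CPM, with an interval that overlapped that of astrocyte-like nuclei in both libraries. Kcnd3, another Kv4 gene, was highest at 453 and 442 CPM in a CA3-like class that also had Col6a1 and Vgll3. The naming rule kept this cluster apart from the main CA3-like class because both genes were among its leading genes.

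Silent Kv subunits form no channel alone and change Kv2 channels. Kcns3 was at 107 and 102 CPM in inhibitory-like neurons and at or below 22.5 elsewhere. Kcng2 was at 83.2 and 84.6 CPM in granule-like and 87 and 78.2 in the Col6a1 and Vgll3 class, which changed places between the libraries. Kcng1 had 25.3 and 29.2 CPM and Kcng3 28.3 and 25.4 CPM in granule-like neurons, their highest class in both libraries. Levels of the other silent subunits, Kcnv1, Kcns2, Kcnf1 and Kcns1, were at most 46.6 CPM in the 14 classes.

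Among the M-current genes, Kcnq5 differed widely between pyramidal classes. Kcnq5, a Kv7 gene at chr1:21398403-21961942, was at 4212 (4166 to 4259) and 4622 (4571 to 4672) CPM in CA3-like neurons. It stood at 2791 and 2693 CPM in CA2-like neurons, 1791 and 1495 in Cajal-Retzius-like neurons, 662 and 529 in CA1-like neurons, and 45.4 and 40.1 in granule-like neurons. The steps from CA3-like to CA2-like to CA1-like to granule-like neurons are each far wider than the counting intervals in both libraries. The separate CA3-like class with Col6a1 and Vgll3, whose levels are given further below, held less Kcnq5 than CA2-like neurons in both libraries. Kcnq3, which joins other Kv7 subunits in the same channel, was spread more evenly: it ranged from 92.4 CPM in fibroblast-like nuclei to 953 in CA1-like neurons of AAV-STOP, and oligodendrocyte-like nuclei held 587 and 591 CPM. Kcnq1 was at most 4.72 CPM in any class.

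In the EAG, ERG and ELK families, Kcnh7, an ERG gene, was at 3857 (3668 to 4054) and 3936 (3754 to 4124) CPM in Cajal-Retzius-like neurons. It reached 1403 and 1178 CPM in CA1-like neurons but only 18.5 and 14.2 in CA3-like neurons, the class where Kcnq5 was highest. Kcnh1, an EAG gene, was highest among the 14 classes in CA2-like neurons at 247 and 256 CPM. Kcnh5, its closest family member, and Kcnh8, an ELK gene, were instead highest in OPC-like nuclei. Kcnh8 had 263 (240.2 to 287) and 244 (221 to 268) CPM there, against 33.8 and 35.9 in CA2-like, 47.5 and 30.5 in immature neuron-like and 0.474 and 0.711 in granule-like nuclei. Kcnh5 had 165 and 147 CPM in OPC-like nuclei and at most 36.9 in the other 13 classes. Kcnh3 was at or below 29.5 CPM in all 14 classes, and Kcnh2, Kcnh4 and Kcnh6 at or below 10.4.

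Of the channels opened by calcium or sodium, Kcnma1, the large-conductance (BK) channel gene, was at 1637 and 1526 CPM in CA2-like neurons, 1306 and 1325 in CA3-like and 942 and 913 in granule-like neurons. It was lowest in oligodendrocyte-like nuclei, newly formed (142 and 112 CPM) and mature (117 and 118 CPM). Kcnn2 and Kcnn3 encode small-conductance (SK) channels. Kcnn2 was at 666 and 497 CPM in astrocyte-like nuclei and 531 and 509 in CA1-like neurons, so the top class differed between the libraries. Kcnn3 was at 126 (108 to 147) and 89.7 (76.7 to 104) CPM in astrocyte-like nuclei, above granule-like neurons at 67.8 and 69.2. Kcnt2, a sodium-activated channel gene, was highest in the Col6a1 and Vgll3 class at 443 and 405 CPM. Kcnt1, its relative, was at 72.1 and 57.7 CPM in fibroblast-like and 40.8 and 61.1 in astrocyte-like nuclei.

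Among inward rectifiers, Kcnj6, Kcnj3 and Kcnj9 encode subunits of the channel opened by G proteins (GIRK) in neurons, and Kcnj6 was highest in granule-like neurons at 1025 and 999 CPM. Kcnj3 was at 580 and 567 CPM and Kcnj9 at 47.3 and 52.3 CPM in the same class, and Kcnj9 in microglia-like nuclei was at 37.4 and 21.3 CPM. Kcnj5, the fourth GIRK gene and the one known from the heart, had 104 UMIs in all. In Cajal-Retzius-like neurons it had 16 and 24 UMIs, or 39.8 (22.7 to 64.6) and 53.5 (34.3 to 79.7) CPM. The other 13 classes were at or below 0.755 CPM, and CA3-like neurons had no UMI, which allows up to 0.397 and 0.429 CPM. Kcnj10, the glial potassium-buffering gene, lies at chr1:172341210-172374085, next to Kcnj9 on that chromosome. It was at 89.1 (73.7 to 107) and 91.3 (78.2 to 106) CPM in astrocyte-like and 87 (78.8 to 95.8) and 96.3 (88.2 to 105) in oligodendrocyte-like nuclei, which do not differ beyond their intervals. It was at 44.4 and 55.9 CPM in OPC-like nuclei and at most 8.79 in the neuronal classes. Kcnj16, its partner subunit, was shared by astrocyte-like nuclei at 89.1 and 68 CPM and OPC-like nuclei at 74.2 and 61 CPM, but oligodendrocyte-like nuclei had only 1.89 and 2.23 CPM. Kcnj12 was at 30.4 and 26.6 CPM in newly formed oligodendrocyte-like nuclei, from 21 and 14 UMIs, with no other of the 14 classes above 9.35. Kcnj4 and Kcnj2 were at most 32.7 CPM, and Kcnj11 at most 14.5.

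Several tandem-pore genes were highest in non-neuronal classes. Kcnk13 was at 189 (150.3 to 235) and 186 (161 to 215) CPM in microglia-like and 144 (134 to 156) and 151 (141 to 162) in oligodendrocyte-like nuclei, with at most 17.8 in the other 12 classes. Kcnk6 was at 65.4 (43.5 to 94.6) and 67.6 (52.7 to 85.4) CPM in microglia-like nuclei and at most 5.78 in the other 13, and Kcnk12 at 86.5 and 67.6 CPM in microglia-like nuclei. Kcnk5, known from epithelia, was at 106 (84.8 to 132) and 64.9 (47.4 to 86.9) CPM in fibroblast-like nuclei and at most 6.92 elsewhere. Kcnk2, the mechanically gated TREK channel gene, was also highest in fibroblast-like nuclei at 334 and 351 CPM, above Cajal-Retzius-like and CA2-like neurons. Kcnk10, a relative of Kcnk2, was highest in OPC-like nuclei at 179 and 148 CPM. Kcnk1 was highest in immature neuron-like nuclei at 191 and 151 CPM, then astrocyte-like nuclei at 113 and 114. Kcnk9, a TASK gene, was at 63.9 and 63 CPM in CA1-like, 59.7 and 71.4 in Cajal-Retzius-like and 54.5 and 56.3 in granule-like neurons, whose order differed between the libraries. Kcnk4 had 22.5 CPM in CA3-like neurons of both libraries as its highest level and at most 8.39 in the other 13 classes. Kcnk3 was at most 15.9 CPM.

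**Figure D2:**
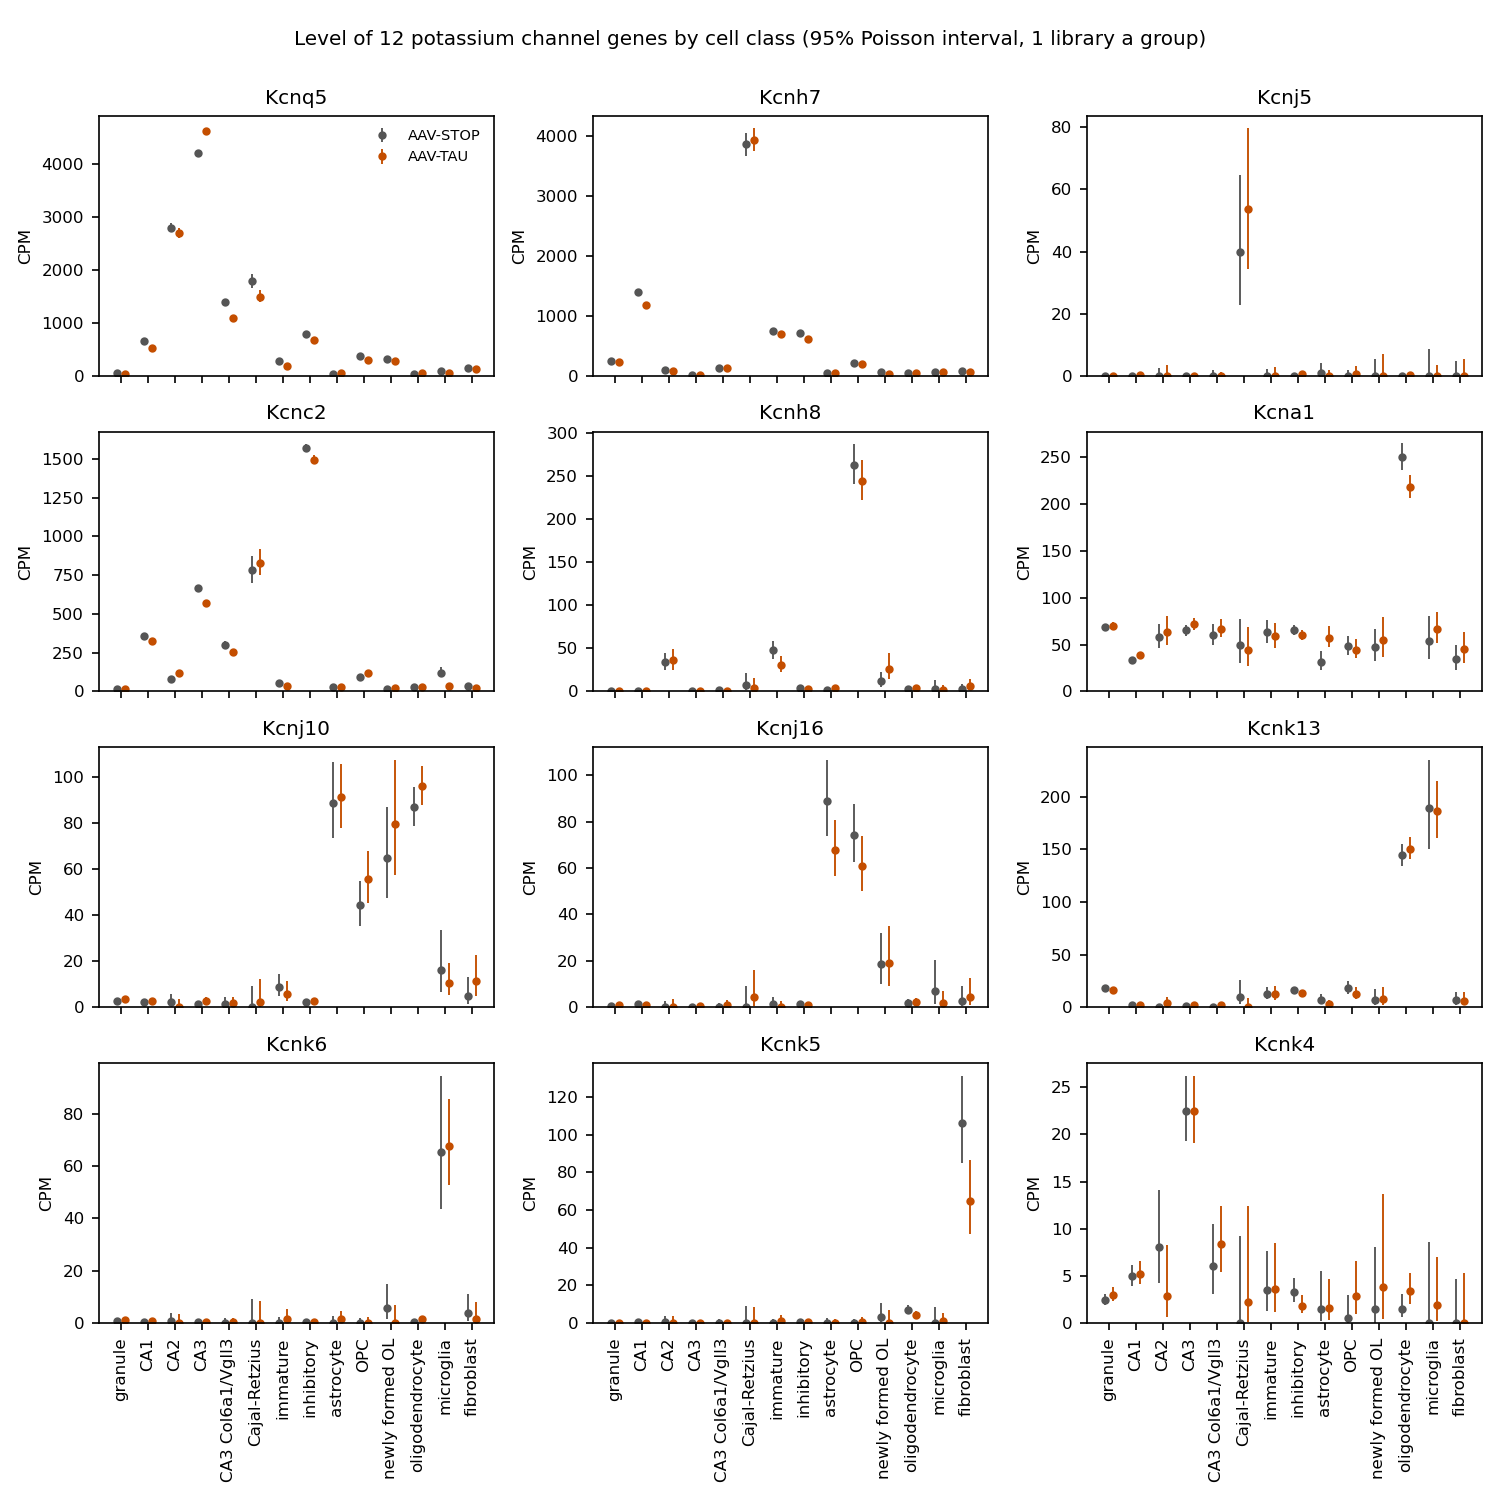
CPM of 12 genes in the 14 classes, with 95% Poisson intervals (grey, AAV-STOP; orange, AAV-TAU; linear axes from 0, 1 library a group). Kcnj5 is above 1 CPM only in Cajal-Retzius-like neurons, Kcnk5 is highest in fibroblast-like and Kcnk6 in microglia-like nuclei in both libraries, and Kcnk13 is high in both microglia-like and oligodendrocyte-like nuclei.

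Auxiliary genes followed several of these patterns. Kcnip4 was at 9425 and 8181 CPM in granule-like, 8191 and 7185 in CA1-like and 1907 and 1659.6 in inhibitory-like neurons. Kcnip1, another KChIP, was at 401 and 347 CPM in inhibitory-like, 484 and 345 in OPC-like and 313 and 254 in Cajal-Retzius-like nuclei, with at most 20.3 in granule-like, pyramidal and immature neuron-like nuclei. Kcnip3 was highest in OPC-like nuclei at 313 and 369 CPM. Kcnmb2, a BK beta subunit, was at 1019 and 1029 CPM in inhibitory-like neurons and 14.6 and 16.6 in granule-like neurons. Kcnmb4, a further BK beta subunit, was at 71.4 and 72.7 CPM in granule-like and 78.3 and 89.2 in OPC-like nuclei. Kcnmb4os2 overlaps the start of Kcnmb4, on the other strand, and was at or under 11.6 CPM. Kcnab1, a Kv1 beta subunit, was highest in CA1-like neurons at 842 and 792 CPM, while Kcnab2 was at 139.8 and 138 CPM in CA2-like neurons. Kcnip2, a KChIP, was at 94.9 and 97.5 CPM in granule-like neurons. For other genes only the highest level over the 14 classes is given, 30.9 CPM for Kcnrg, 26.5 for Kcnc4, 14.7 for Kcnu1, 14.02 for Kcnd1, 13.2 for Kcnab3, 7.83 for Kcnn1 and 5.78 for Kcna3.

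Free neuronal RNA reaches glial nuclei in such libraries, and 12 neuronal genes outside the Kcn family were used as a guide to it. Their median level in the 9 classes not named as neurons, cycling nuclei among them, was 12.04% to 46.1% of that in neurons, and the highest of the 12 reached 69.8% to 189% depending on the class and library. Where the highest exceeds the level in neurons it may hold RNA made by the class itself, which was not tested. It therefore serves as a high bar and not as the level of free RNA. The lower interval bound lay above that highest value in both libraries for 9 of the 74 genes in astrocyte-like nuclei, 10 in OPC-like, 8 in oligodendrocyte-like, 5 in microglia-like, 5 in newly formed oligodendrocyte-like and 4 in fibroblast-like nuclei. The same counts over all genes were not made, so these are not read as many or few. Kcnj10, Kcnj16, Kcnn3 and Kcnk1 were among the 9 in astrocyte-like nuclei, Kcnh5, Kcnh8, Kcnip1 and Kcnk10 among the 10 in OPC-like nuclei, and Kcnk6, Kcnk12 and Kcnk13 among the 5 in microglia-like nuclei. By contrast, Kcnip4 in microglia-like nuclei stood at 4.78% and 2.93% of its neuronal level, below the median of the 12 genes (20.5% and 19.0%). Kcnd2 there stood at 9.22% and 4.46%, and Kcnj6 at 19.1% and 11.7%, so these 3 are read as background in microglia-like nuclei. Kcnd2 in OPC-like nuclei was at 121% and 122% of its neuronal level, against medians of 29.9% and 31.5% and a highest of 118% and 122% for the 12 genes, so it was not above that highest value in both libraries. It stood far above the medians, so it is not read as background there.

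Within inhibitory-like neurons, 4 subtypes were named from finer clusters, with 307 and 272 Pvalb-like, 317 and 409 Sst-like, 263 and 257 Lamp5-like and 209 and 206 Cck-like nuclei. Kcnc2 stepped down from 2733 and 2581 CPM in Pvalb-like to 1679 and 1686 in Sst-like, 1103 and 738 in Cck-like and 419.9 and 459 in Lamp5-like neurons. Kcnc1 was at 478 and 530.0 CPM in Pvalb-like and at most 252 in the other subtypes. Kcnma1 was highest in Pvalb-like neurons as well, at 1215 and 1304 CPM, and lowest in Cck-like neurons at 423 and 386. Kcnq5 ran the other way, with 1759.6 and 1563 CPM in Cck-like, 893 and 752 in Lamp5-like, 246 and 226 in Sst-like and 235 and 213 in Pvalb-like neurons. Kcnip1 was also highest in Cck-like neurons, at 678 and 663 CPM. Kcns3 was highest in Lamp5-like neurons at 228 and 223 CPM and lowest in Cck-like neurons at 30.7 and 31.2. Kcnd3 was lowest in Pvalb-like neurons at 114 and 92.8 CPM, against 349 and 316 in Cck-like neurons. Kcnmb2 lay between 689 and 1350 CPM in all 4, highest in Sst-like neurons at 1339 and 1349.6.

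**Figure D3:**
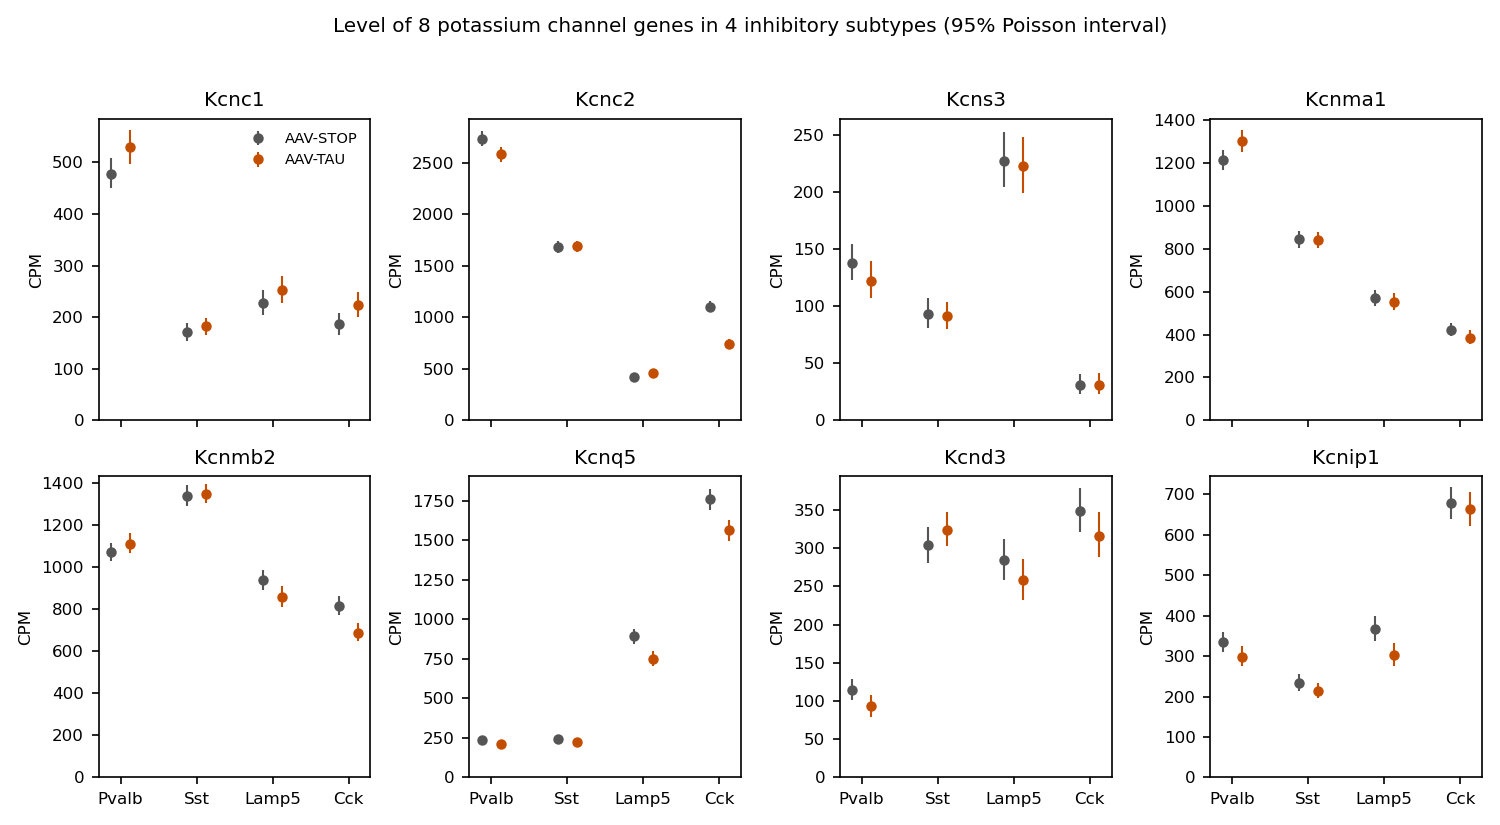
CPM of 8 genes in 4 inhibitory subtypes with 95% Poisson intervals (grey, AAV-STOP; orange, AAV-TAU). Kcnc1, Kcnc2 and Kcnma1 are highest in Pvalb-like neurons and Kcnq5 and Kcnip1 in Cck-like neurons, in both libraries.

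The comparison of AAV-TAU with AAV-STOP asks whether full-length tau goes with other levels of these genes in the same class. In granule-like neurons the genes were close to equal: of the 38 that could be read (at least 100 UMIs in the class, and at least 20 CPM in whichever library was higher), none was 1.2 times higher or more, where 10.6% of 7072 genes were, and none was 1.2 times lower or more, where 0.424% were. Kcnip4, at 9425 and 8181 CPM, had a ratio of 0.868 (0.863 to 0.873), and Kcnq3, at 893 and 757 CPM, one of 0.848 (0.831 to 0.864). At the other end Kcng1, at 25.3 and 29.2 CPM, had a ratio of 1.15 (1.04 to 1.28). Within this narrow range 23 were lower and 15 higher. Their median log2 ratio was -0.02, against 32.3% lower and a median of 0.05 over all genes. Scaled by the median of ratios instead of total UMIs, 32 were lower and 6 higher. That scaling centres all genes with at least 20 CPM in both libraries on no change, so the shares lower over all genes given here do not apply to it. All ratios quoted as log2 are of CPM with 5 CPM added to each.

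CA1-like neurons showed 2 of 35 genes at 1.2 times lower or more, where 0.466% of 6861 genes were, and 1 at 1.2 times higher or more, where 10.6% were. Kcnq5 was at 662 and 529 CPM, a ratio of 0.799 (0.776 to 0.823), and Kcnd2 at 3418 and 2838 CPM, a ratio of 0.830 (0.820 to 0.841). Kcnh7 came next at 1403 and 1178 CPM, just short of that fold. The gene that was higher, Kcnmb4, was at 28.2 and 34.5 CPM, a ratio of 1.23 (1.08 to 1.39), and its log2 ratio went from 0.25 to 0.09 when nuclei were thinned to 1500 UMIs each. In all 20 were lower and 15 higher, against 33.6% lower over all genes. Scaled by the median of ratios, the counts were 24 and 11.

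CA3-like neurons also had 2 genes at 1.2 times lower or more, of 31 (2.09% of 6562 genes), and 1 at 1.2 times higher or more (12.7%). The lower pair was Kcnh1, at 161 and 134 CPM, and Kcna4, at 44 and 36.6 CPM, and the higher gene was Kcnk10, at 47.7 and 57.8 CPM. Thinned, the log2 ratio of Kcnh1 went from -0.26 to -0.026 and that of Kcnk10 from 0.25 to 0.93. Kcnq5 went against its direction in CA1-like neurons, with a ratio of 1.10 (1.08 to 1.11) on its high level here. In the smaller class with Col6a1 and Vgll3, 5 of 35 genes were lower past the fold (7.22% of all genes) and 2 higher (18.3%), and Kcnq5 was lower again, at 1388 and 1089 CPM, a ratio of 0.784 (0.745 to 0.825), or a log2 ratio of -0.35 that became -0.15 with doublets kept and -0.13 at clustering resolution 2. CA2-like neurons had 2 of 26 lower (11.9%) and 3 higher (11.7%), among them Kcnc2 at 80.3 and 116 CPM, which was lower in AAV-TAU when nuclei marked as doublets were kept.

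In inhibitory-like neurons 25 of 36 genes were lower and 11 higher, with a median log2 ratio of -0.07, while 38.5% of all genes were lower and their median was 0.04. None reached 1.2 times lower (1.86% of 7466 genes did) and 1, Kcnh5 at 22.5 and 28 CPM, reached 1.2 times higher (12.2%). Among subtypes, Cck-like neurons had 5 of 26 genes lower past the fold (9.74% of 5144 genes) and 2 higher (18.5%), among them Kcna1 at 58.9 and 37.5 CPM and Kcnc2 at 1103 and 738 CPM, the latter a ratio of 0.669 (0.620 to 0.722), whose log2 value went from -0.58 to -0.29 when thinned. That of Kcna1 went from -0.59 to -0.17 when thinned. Kcnip4 was lower past the fold in Cck-like, Lamp5-like and Sst-like neurons, with ratios of 0.711, 0.822 and 0.769, and higher in Pvalb-like neurons at 1649 and 1909 CPM, a ratio of 1.16 (1.11 to 1.21). Thinned, its log2 ratio in Pvalb-like neurons went from 0.21 to 0.004. In Cck-like, Lamp5-like and Sst-like neurons the thinned values were -0.71, -0.41 and -0.44. Lamp5-like neurons had 2 of 28 genes lower (8.24%) and 2 higher (18.4%), Sst-like neurons 4 of 33 lower (7.34%) and 2 higher (17%), and Pvalb-like neurons 2 of 33 lower (7.3%) and 1 higher (14.9%). In Sst-like neurons 18 were lower and 15 higher, where 43.8% of 7062 genes were lower. Scaled by the median of ratios, the counts were 22 and 11.

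Cajal-Retzius-like neurons, a small class of 131 and 170 nuclei, had the lowest ratios of the neuronal classes. Here 7 of 15 genes were lower past the fold (21.7% of 1607 genes) and none was higher (20.3%). All 15 were over 100 kb, and 12 of them were lower by any amount, where 65.3% of 870 genes of that length were. Kcnd2 was at 525 and 223 CPM, from 211 and 100 UMIs, a ratio of 0.425 (0.332 to 0.542), and Kcnj6 at 293 and 141 CPM, a ratio of 0.479 (0.347 to 0.656). With doublets kept, or thinned to 1500 UMIs per nucleus, the log2 ratio of Kcnd2 went from -1.22 to -0.65 and -0.62. Kcnh7 and Kcnb2, both highest in this class, had ratios of 1.02 and 1.04 with intervals that held 1, and Kcnj5, the third such gene, had too few UMIs to be read. Of the 12 neuronal genes, 11 could be read here, with 7 lower, 5 of them past the fold, and a median log2 ratio of -0.23, and their part was not tested. Immature neuron-like nuclei had 8 of 30 lower (10.1%) and 2 higher (16.8%), and the lowest ratios were those of Kcnh8 at 47.5 and 30.5 CPM, Kcnc2 at 53.9 and 35.5 and Kcnq5 at 273 and 188. Fewer cells of one kind within a class and less RNA per cell cannot be told apart in such sums.

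Kcnip4 and Kcnd2, which act in the same A-type channel, were lower in AAV-TAU in 12 of the 14 classes each, with the interval below 1 in 12 and 9 of them. The ratio of Kcnip4 was 0.877 in CA1-like and 0.870 in inhibitory-like neurons, and that of Kcnd2 was 0.834 in CA3-like and 0.987 in inhibitory-like neurons. Dpp6, the third component of that channel and not a Kcn gene, stood at 1692 and 1670.0 CPM in granule-like neurons (ratio 0.987), and its ratio in CA1-like neurons was 1.01, while CA3-like neurons gave 1.05. Kcnq3 was lower in 12 of 14 classes and Kcnn2 in 8 of 10. Kcnma1 had log2 ratios from -0.33 (newly formed oligodendrocyte-like nuclei) to 0.03 over 14 classes, and Kcnip3 was higher in 7 of the 9 classes where it could be read. The classes of a library share its preparation and its free RNA, so these are not independent repeats.

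**Figure D4:**
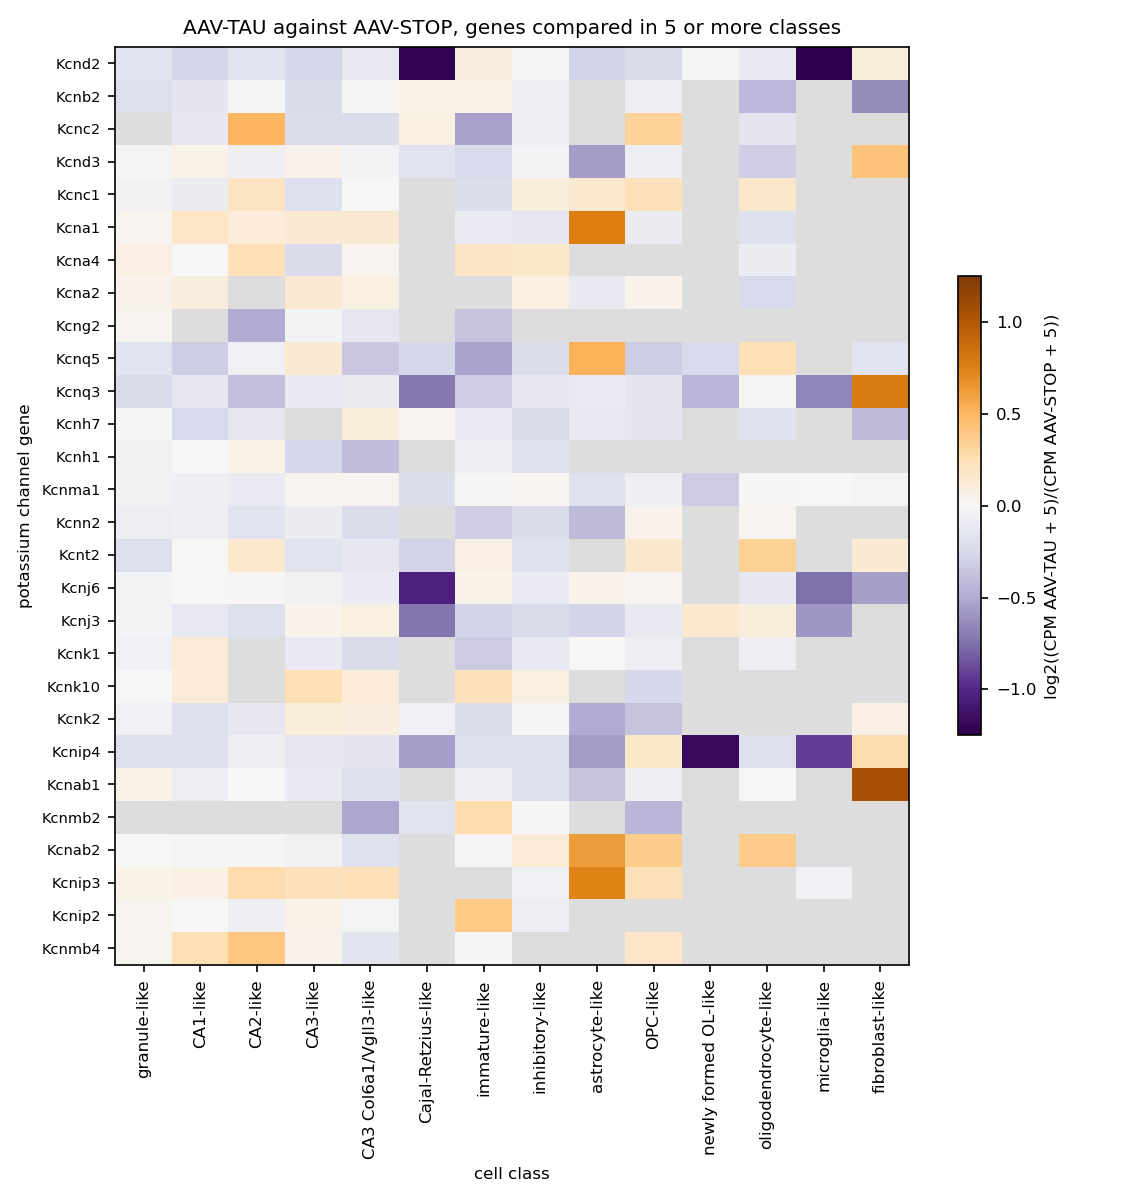
log2 ratio of AAV-TAU over AAV-STOP (5 CPM added to each) for 28 genes read in 5 or more of the 14 classes; purple is lower and orange higher in AAV-TAU, and grey cells lacked the UMIs or CPM to be read. The rows of Kcnip4, Kcnq3 and Kcnd2 are mostly purple, and the darkest purple stands in Cajal-Retzius-like, microglia-like and newly formed oligodendrocyte-like nuclei.

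Over all genes, length moved with the ratio in every class and subtype compared. A larger share was lower in AAV-TAU among genes over 100 kb than among genes under 20 kb. In granule-like neurons, genes over 100 kb were lower in AAV-TAU in 62.9% of all 1663 cases, with a median log2 ratio of -0.03, and genes under 20 kb in 11.5% of 1864, with a median of 0.14. The 18 potassium channel genes over 100 kb in that class had 15 lower and a median of -0.05, and the 6 under 20 kb had 1 lower and a median of 0.03. In CA1-like neurons 14 of 18 long ones were lower with a median of -0.11, beside 56.1% lower and a median of -0.02 over all long genes. In inhibitory-like neurons 16 of 20 were lower with a median of -0.12, beside 65.0% and -0.04. Channel genes of oligodendrocyte-like nuclei did not follow this: 4 of 4 under 20 kb were lower (median -0.14), and 7 of 14 over 100 kb were (median -0.06). Over all genes of that class, 23.7% under 20 kb (median 0.18) and 60.6% over 100 kb (median -0.05) were lower. Channel genes lower numbered 3 of 5 short and 11 of 17 long ones in CA3-like neurons, beside 21.9% and 54.8% over all genes. They numbered 2 of 3 short and 12 of 19 long ones in immature neuron-like nuclei, beside 28.9% and 61.7%. Long genes made up 18 of the 38 channel genes read in granule-like neurons, against 1663 of 7072 genes in all, so length and channel function cannot be told apart here. The mitochondrial share and the UMIs per nucleus also differed between the libraries, and their part was not tested.

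**Figure D5:**
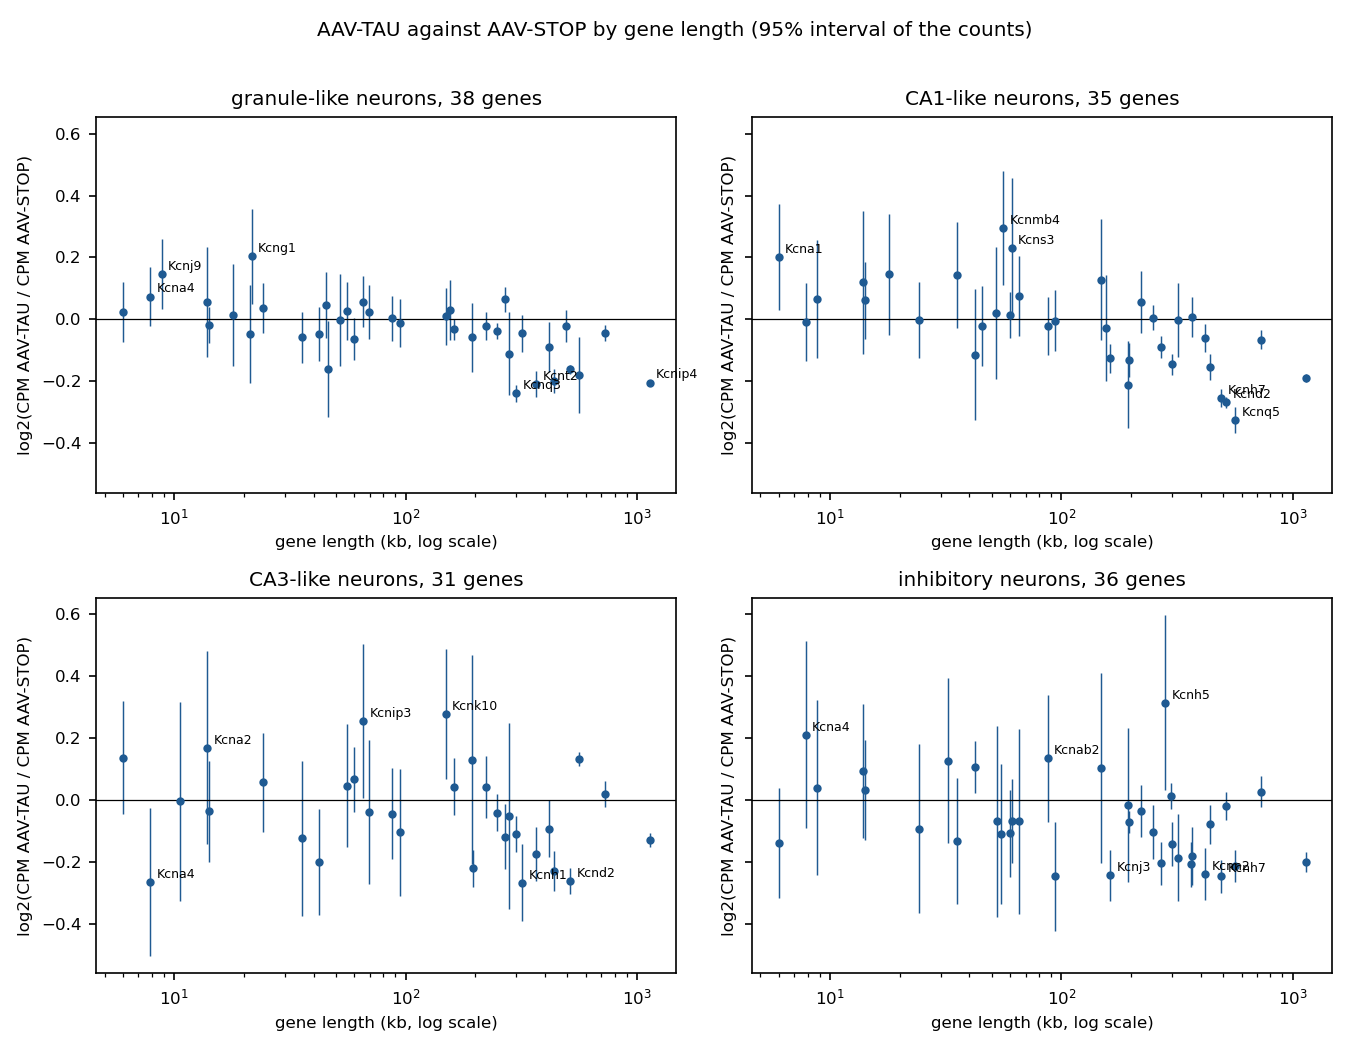
log2 ratio of CPM in AAV-TAU over AAV-STOP against gene length (log axis, kb) for the genes read in 4 neuronal classes, with 95% intervals of the counts; named points are the 3 highest and 3 lowest of each class. Ratios of genes under 100 kb scatter around 0, and those near 300 kb and longer lie mostly below it, with Kcnq5 in CA3-like neurons above.

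In glia the ratios were wider. Astrocyte-like nuclei had 9 of 24 genes lower past the fold (13.4% of 5787 genes) and 5 higher (22.2%). The lower ones included Kcnd3 at 162 and 108 CPM, Kcnk2 at 125 and 87.1, Kcnn3 at 126 and 89.7 and Kcnj16 at 89.1 and 68, while Kcnj10 stayed at 89.1 and 91.3 CPM. Among the higher ones Kcnip3 was at 95.1 and 161 CPM, a ratio of 1.70 (1.37 to 2.11), and Kcna1 at 31.7 and 57.4 CPM, a ratio of 1.81 (1.26 to 2.65). Kcna1 was not above the highest of the 12 neuronal genes in this class, where 4 of the 12 were higher past the fold and 2 lower, and their part was not tested. OPC-like nuclei had 6 of 33 lower (10.1% of 6415 genes) and 3 higher (19.8%), with Kcnip1 at 484 and 345 CPM, a ratio of 0.714 (0.643 to 0.791). Oligodendrocyte-like nuclei had 3 of 26 lower (6.4%) and 3 higher (21.5%), and Kcnab2, a Kv1 beta subunit, was at 26.4 and 35.8 CPM. Kcnab2 was not above the highest of the 12 neuronal genes there, and 11 of those 12 were themselves higher, 4 past the fold, with a median log2 ratio of 0.14; their part was not tested. Of the 26 channel genes, 13 were lower and 13 higher, where 41.9% of 7365 genes were lower. Scaled by the median of ratios, the counts were 17 and 9.

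Microglia-like nuclei numbered 174 in AAV-STOP and 514 in AAV-TAU. Clusters of 146 and 59 and of 124 and 11 nuclei also matched microglia best. They were left unnamed because Rbfox3, a neuronal gene, was above the naming limit. The naming rule thus left out more such nuclei of AAV-STOP, so 174 and 514 do not compare all microglia. Its part in the ratios was not tested. In the named class 6 of 9 genes were lower past the fold (18.1% of 3434 genes) and none higher (21.7%). In all 8 of the 9 were lower, where 48.8% of 3434 genes were, and 9 of 9 when scaled by the median of ratios. Of the 6 over 100 kb, 5 were lower, where 69.1% of 1033 genes of that length were. Kcnd2, at 248 and 100.5 CPM, Kcnip4, at 348 and 182, and Kcnj6, at 143 and 82.1, were the lowest, and these are the 3 read above as background. The list of 12 neuronal genes had a median of 20.5% and 19.0% of the neuronal level in this class, and 9 of the 12 were lower in AAV-TAU, 5 of them past the fold, with a median log2 ratio of -0.18, but their part in these ratios was not tested. Thinned to 1500 UMIs, Kcnd2 went from a log2 ratio of -1.26 to -0.84, and Kcnj6 went from -0.76 to -1.31 with equal nuclei per fine cluster. The genes highest in microglia gave ratios near 1 or with wide intervals: Kcnk13 was at 189 and 186 CPM with an interval of 0.756 to 1.29, Kcnk12 had a ratio of 0.782 (0.518 to 1.2), and Kcnk6 was at 65.4 and 67.6 CPM. Newly formed oligodendrocyte-like nuclei had 3 of 6 lower (16.2%) and none higher (15.1%), led by Kcnip4 at 422 and 184 CPM, whose log2 ratio went from -1.18 to -0.25 when doublets were kept. All 6 were over 100 kb, and 5 of them were lower by any amount, where 60.2% of 993 genes of that length were. Fibroblast-like nuclei had 4 of 13 lower (21.4%) and 4 higher (20.4%). Kcnk5 was at 106 and 64.9 CPM there, a ratio of 0.611 (0.416 to 0.888) that was above 1 when equal numbers of nuclei were drawn from each fine cluster.

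Of 24 partners of potassium channels outside the Kcn family, 17 could be read in granule-like neurons, with 10 higher, 3 of them past the fold, 7 lower and a median log2 ratio of 0.01. In CA1-like neurons 18 could be read, with 10 higher, 5 of them past the fold, 8 lower and a median of 0.01, and in inhibitory-like neurons 17, with 7 higher, 3 of them past the fold, 10 lower and a median of -0.02. No partner was lower past the fold in these 3 classes. Over all genes the medians were 0.05, 0.05 and 0.04 in the same order, with 10.6%, 10.6% and 12.2% higher past the fold.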

How the data were processed

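Single-nucleus 10x 3' libraries were analysed, 1 AAV-STOP and 1 AAV-TAU, each from pooled hippocampi of 3 mice. The deposited matrices hold UMI counts per gene and barcode. Per the file headers they came from Cell Ranger 8.0.1, while the submitters' processing notes name Cell Ranger 4.0, Seurat 4.4.0 and mm10. Whether counting used strand is not given in the sources used here.

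With Python 3.11.15, scanpy 1.11.5 and leidenalg 0.10.2, barcodes were required to hold at least 500 UMIs and 300 genes, with no more than 5% of UMIs mitochondrial, and 2198 (10.8%) and 2044 (10.4%) were marked as doublets by a nearest-neighbour score against simulated doublets (expected rate 0.15) and left out. The joint clustering used 3000 variable genes without Kcn genes, 30 components, 15 neighbours and resolution 1. Neighbours were found exactly, not approximately. Clusters were named by fixed marker sets, with thresholds set after seeing the data (mean log2 level of 1.6 or more, a lead of 0.5, 3 or more markers raised, and, for types other than neurons and cycling nuclei, Rbfox3 at 50% of the neuronal median or less). Another 4077 and 3836 nuclei had no class, and rebuilt names may differ from the study's own. The members and lists were chosen with earlier results of these data known.

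UMIs were summed per class and library. Poisson intervals and conditional intervals of count ratios are exact, and with 1 library per group no p-value was computed. Calculations were tested on simulated data. The genes named are the 4 with the most UMIs per role, up to 3 at each end of the ratios per class, and up to 3 per class by level over the median class. Kcnj5, Kcnt1 and genes given only by their highest level were added after their values were seen, and 4 of the 74 enter all counts but are not reported by name here. Of the 74 genes, 52 had an entry in the RefSeq promoter table. Alternatives were another pseudocount (1 CPM), no filter, other scaling, doublets kept, resolutions 2 and 0.5, Kcn genes among the variable genes, means over nuclei, 2000 or more UMIs, thinning to 1500 UMIs, and equal nuclei per fine cluster.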

Additional observations from a re-analysis of the deposited data

Results flagged for a closer look

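For 5 genes, AAV-TAU was 1.2 times higher or more in one class and 1.2 times lower or more in another, with intervals on opposite sides of 1. The difference between classes was not tested. The same count over all genes was not made, so the 5 are not read as a trait of potassium channel genes. The log2 ratio of Kcnc2 was 0.51 in CA2-like neurons (119 and 123 UMIs) and -0.54 in immature neuron-like nuclei (92 and 49 UMIs). Kcnip4 had 0.27 in fibroblast-like and -1.18 in newly formed oligodendrocyte-like nuclei, and Kcnq3 had 0.79 in fibroblast-like nuclei and -0.72 in Cajal-Retzius-like neurons. With doublets kept, Kcnq3 turned to -0.22 in fibroblast-like nuclei, Kcnip4 went to -0.25 in newly formed oligodendrocyte-like nuclei, and Kcnc2 turned to -0.23 in CA2-like neurons. Thinned to 1500 UMIs per nucleus, Kcnc2 was at 0.05 in CA2-like and -0.12 in immature neuron-like nuclei. Kcnk10 had 0.25 in CA3-like neurons and -0.26 in OPC-like nuclei. Kcnq5 had 0.52 in astrocyte-like nuclei (50 and 106 UMIs) and -0.53 in immature neuron-like nuclei (466 and 259 UMIs).

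Some nuclei outside the classes compared held a gene above every one of the 14 classes in both libraries. Choroid plexus-like nuclei, 35 and 52 in number, had Kcnj13 at 368 and 459 CPM, against 35.4 and 26 in fibroblast-like nuclei as the next, and Kcnh1 at 415 and 463 CPM. A cluster left without a name (107 and 60 nuclei), with Cpa6, Ano1, Ano2 and Zic4 among its leading genes, had Kcnn3 at 229 and 244 CPM, against 126 and 89.7 in astrocyte-like nuclei.

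Other clusters left without a name made up the rest. The cluster led by Npsr1 and Vwc2l (352 and 407 nuclei) had Kcnh5 at 277 and 301 CPM, Kcnj3 at 711 and 693 CPM and Kcnj9 at 77.8 and 82.5 CPM. The cluster led by Vwc2l and Tshz2 (218 and 215 nuclei) had Kcnd2 at 3801 and 3413 CPM and Kcnmb4 at 149 and 157 CPM. The cluster with Fn1 and Rxfp1 among its leading genes (248 and 176 nuclei) had Kcnip4 at 13068 and 11974 CPM and Kcnn2 at 849 and 905 CPM. Kcnn2 was at 775 and 721 CPM in a cluster with Shoc1 and Pde11a among its leading genes (489 and 364 nuclei).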

How the results depend on the processing

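Of 183 values under 11 alternatives (the share of potassium channel genes lower in AAV-TAU per class or subtype, and the number with the same top class in both libraries, which was 56 to 59 against 57), 175 stayed inside the exact binomial interval of the main share or within 1.5 times the main number. That interval counts genes as if they were independent and is wide where few were read. The bar of 1.5 times is wide too, so the count of 175 is a weak measure of stability. The exceptions were 38.4% lower in CA1-like neurons with no filter on low values, 84.2% in granule-like neurons and 100% in microglia-like nuclei when scaled by the median of ratios, 87.5% in CA2-like neurons, 78.6% in astrocyte-like and 100% in microglia-like nuclei when thinned to 1500 UMIs, 100% in Cajal-Retzius-like neurons with means over nuclei, and 77.8% in fibroblast-like nuclei with doublets kept; the cause was not tested. Of 52 named ratios past the fold with an interval off 1, 4 changed sign: with doublets kept, Kcnc2 in CA2-like neurons (-0.23), Kcnq3 in fibroblast-like nuclei (-0.22) and Kcnq5 in oligodendrocyte-like nuclei (-0.018), and with equal nuclei per fine cluster Kcnk5 in fibroblast-like nuclei (0.042). Of 527 alternative values of these 52, 22 kept their sign but moved beyond the interval, 10 of them when thinned, among them Kcnq3 in CA2-like neurons (-0.39 to -0.95), and with doublets kept Kcnab1 in fibroblast-like (1.06 to 0.21) and Kcnip4 in astrocyte-like nuclei (-0.56 to -1.04). The ratio of Kcnq5 in CA1-like neurons ran from -0.36 to -0.29 and that of Kcnd2 in the same class from -0.31 to -0.23 over all 11 alternatives. At resolution 2 the CA2-like cluster formed with the same 145 and 115 nuclei but was left unnamed by the naming rule, at 0.5 neither it nor the Col6a1 and Vgll3 class formed, and inhibitory subtypes have no value at these resolutions, with doublets kept or with Kcn genes among the variable genes. No paired analysis was possible because each group has 1 library. Depth limits the smallest classes most: a gene with no UMI in Cajal-Retzius-like neurons of AAV-STOP could still be at 7.46 CPM.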
